A study of Mus musculus with 15 samples.

Results

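mmu-miR-155-5p and mmu-miR-155-3p, the arms of the Mir155 hairpin, and mmu-miR-147-3p of the Mir147 hairpin were followed through small RNA libraries of mouse Kupffer cells, which are macrophages resident in the liver. The prefix for mouse is left out hereafter. The 3 rows were chosen by name, as microRNAs known to be induced in macrophages through Toll-like receptors (TLRs), out of 248 mature miRNAs listed. The cells came from C57BL/6J mice, called wt, at 9 weeks (n = 4) and 14 weeks (n = 4) of age, and from ob/ob mice of the same strain label at 9 weeks (n = 3) and 14 weeks (n = 4). ob/ob mice carry no functional leptin and become obese. The study concerns liver macrophages, obesity and antioxidant defence, and the comparison here asks how these miRNAs differ between obese and lean mice at each age. The labels do not say how the Kupffer cells were purified or that replicates were separate animals. The p-values therefore speak only of the spread among these samples, which may be technical.

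TLR ligands and inflammatory cytokines raise transcription of the miR-155 host RNA in macrophages, and the mature 5p strand lowers proteins that restrain cytokine signalling, among them Socs1 and the phosphatase encoded by Inpp5d, as well as the haem-regulated repressor Bach1. The 3p strand of the hairpin is the less abundant one in most cells and is known to appear early after stimulation of some immune cells. miR-147 is induced by several TLR ligands in mouse macrophages and is known to dampen the output of inflammatory cytokines.

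The sequences of the miR-155 arms are shown for reference, although how closely a counted read had to match them is not given. They are RefSeq sequences, 5′ to 3′, on build GRCm38.p6, with capitals marking the seed, bases 2 to 8, that pairs with targets.
miR-155-5p: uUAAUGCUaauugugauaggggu
miR-155-3p: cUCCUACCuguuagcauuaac
The mature miR-155-5p lies at chr16:84714143-84714165 and miR-155-3p at chr16:84714182-84714202, both on the plus strand. In the 65-base hairpin, capitals mark both arms.
Mir155: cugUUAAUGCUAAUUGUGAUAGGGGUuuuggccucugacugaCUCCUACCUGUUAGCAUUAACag
GENCODE vM21 on GRCm38 places this hairpin in exon 2 of the non-coding gene Mir155hg (chr16:84703167-84715245, plus strand). It places Mir147 (chr2:122640803-122640881, plus strand) in the last exon of the protein-coding gene AA467197 (chr2:122636986-122641191, plus strand), within the 3′ UTR of 2 of its transcripts. A RefSeq mature sequence was matched for 2 of the 3 rows and for 218 of the 248 listed miRNAs. None of the other listed miRNAs with a sequence, and none of the other mature miRNAs among the 1679 in the RefSeq table, shared the seed of either miR-155 arm. The closest listed sequences, miR-26b-5p to miR-155-5p and miR-130b-5p to miR-155-3p, were each 8 edits away.

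Values are RPM, reads per 1000000 reads, as deposited with 1 table for each age. The libraries implied depths of 9.08 to 98.1 M reads (M, 1000000), with no overlap between genotypes at either age: 13.4 to 22.8 M in wt and 25.9 to 33.9 M in ob/ob at 9 weeks, 9.08 to 39.0 M and 44.0 to 98.1 M at 14 weeks. The listed miRNAs summed to 147387 RPM in wt replicate 1 of 14 weeks, which stood apart, and to 230785 to 358621 RPM in the other libraries. Age, table and, at 9 weeks, sequencing lane go together, so levels at 9 and 14 weeks are set side by side without a test. Myeloid miR-511-3p, which is processed from intronic RNA of the mannose receptor gene Mrc1, was present in every library at 53.6 to 183.1 RPM, and the arms of miR-142a, made by blood cells, summed to 1756 to 4320 RPM. Marker miRNAs of other cell types were present too, with hepatocyte, endothelial, stellate and lymphocyte markers above 0 in summed level in every library. In such bulk libraries fewer cells of a type and less RNA per cell cannot be told apart.

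miR-155-5p was a miRNA of middling abundance in all 15 libraries, and it was higher in ob/ob than in wt Kupffer cells at 14 weeks. At 14 weeks the mean was 18.9 ± 4.40 RPM (SD, n = 4) in ob/ob and 7.54 ± 3.11 RPM (n = 4) in wt, a ratio of means of 2.50. At 9 weeks it was 14.3 ± 5.70 RPM (n = 3) in ob/ob and 9.19 ± 4.27 RPM (n = 4) in wt, a ratio of 1.56 that did not pass the test. The levels ordered the groups as ob/ob at 14 weeks, ob/ob at 9 weeks, wt at 9 weeks and wt at 14 weeks, and each pair of neighbours in that order overlapped in its libraries. By mean level it took place 96 to 118 of the 248 miRNAs in the groups, and place 91 to 126 in single libraries.

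In wt at 14 weeks, miR-155-5p was at 5.84, 11.97, 7.38 and 4.99 RPM in replicates 1 to 4, from 53, 467, 175 and 120 reads. In ob/ob at 14 weeks it was at 21.8, 23.4, 16.2 and 14.2 RPM, from 960, 2291, 956 and 729 reads. Every ob/ob library lay above every wt library, the nearest being wt replicate 2 and ob/ob replicate 4. Their 95% Poisson intervals were 10.9 to 13.1 and 13.1 to 15.2 RPM, which met without overlapping. Such intervals cover counting error only, since the reads carry no molecular identifiers and are not independent molecules.

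On the log2(RPM + 0.5) scale the difference at 14 weeks was 1.31 ± 0.32 (SE, limma adjusted p = 0.0201 over 171 miRNAs), with ob/ob higher in 4 of 4 libraries. Of those 171 miRNAs 15.2% passed the same test, 11.7% with higher and 3.51% with lower values in ob/ob, and the median log2 difference was 0.20. Groups without overlap and higher in ob/ob were found for 22.2% of them, so separation of this kind was not rare at this age. The difference of miR-155-5p took place 17 from the top among the 171. A two-sided exact permutation test of this row alone gave p = 0.0286 (n = 4 and 4), the smallest it can give.

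After each library was divided by its median ratio to the other libraries of its age, so that the median difference of all miRNAs became 0, the 14-week difference of miR-155-5p was 1.10 ± 0.28 (adjusted p = 0.0192). Rescaled levels were 4.50 to 10.4 in wt and 13.8 to 20.2 in ob/ob, still without overlap, as for 16.1% of 168 miRNAs. Of these 28.6% were called after rescaling, 15.5% higher and 13.1% lower in ob/ob. Without wt replicate 1, the library whose sum stood apart, the difference as deposited was 1.22 ± 0.31 (adjusted p = 0.0260). For each genotype, the labels put the first 2 libraries of 14 weeks in sequencing lane 1 and the others in lane 2. The difference was 1.38 ± 0.79 in lane 1 alone (limma adjusted p = 0.450) and 1.25 ± 0.27 in lane 2 alone (adjusted p = 0.0364), with 2 libraries of each genotype in a lane. In both lanes ob/ob lay above wt, which held for 24.6% of the 171 miRNAs.

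The 14-week call did not hold under every setting. A GC correction after rescaling gave a difference of 0.66 ± 0.30 (limma adjusted p = 0.141), and the call ended when any of 4 libraries was left out: wt replicate 3 (adjusted p = 0.0580) or 4 (adjusted p = 0.0620), and ob/ob replicate 2 (adjusted p = 0.0780) or 3 (adjusted p = 0.05005). Fits without a library also asked for 1 RPM in fewer libraries, so the set of tested miRNAs, and with it the adjustment, could change too. miR-155-5p has a GC content of 34.8%, against a median of 47.6% of the listed miRNAs with a sequence.

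**Figure D1:**
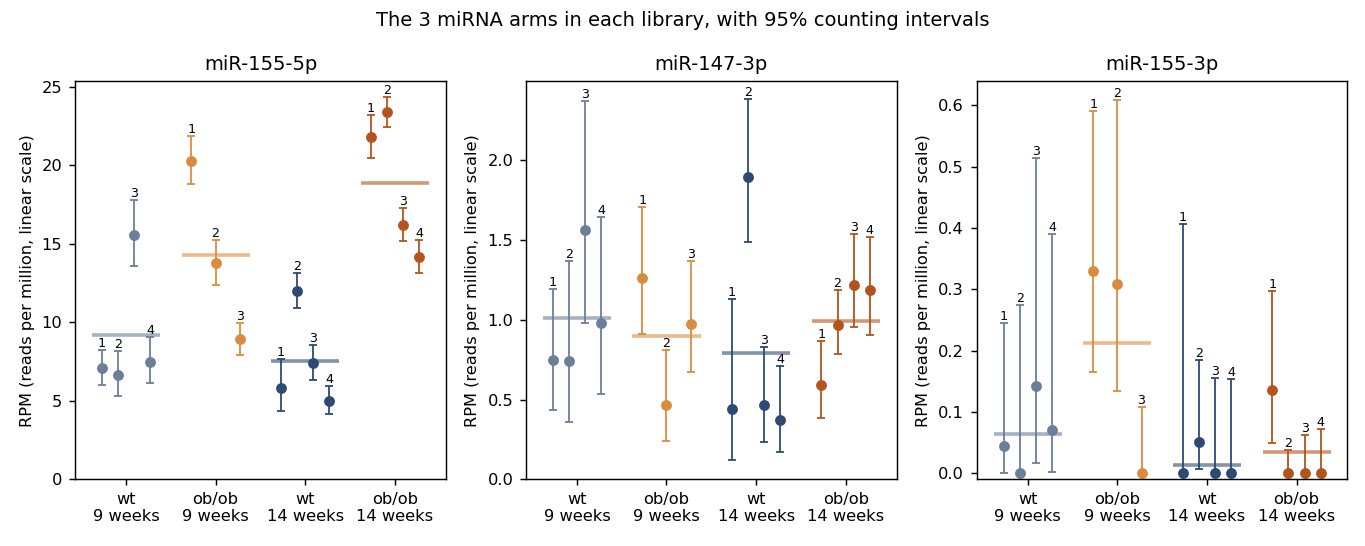
RPM of miR-155-5p, miR-147-3p and miR-155-3p (y axes, linear, a different range in each panel) in every library by group (x axis). Points are libraries with the replicate number above, vertical bars are 95% Poisson intervals of the reads, and horizontal bars are group means. For miR-155-5p the ob/ob libraries of 14 weeks, 14.2 to 23.4 RPM, lie above the wt libraries of that age, 4.99 to 11.97 RPM, while the groups overlap in the other comparisons.

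At 9 weeks, wt replicates 1 to 4 held 7.07, 6.63, 15.6 and 7.49 RPM of miR-155-5p, from 161, 89, 219 and 107 reads. The ob/ob replicates 1 to 3 held 20.3, 13.8 and 8.91 RPM, from 675, 356 and 302 reads. wt replicate 3 lay above ob/ob replicates 2 and 3, and the other wt libraries lay below all ob/ob libraries. The difference was 0.63 ± 0.38 (SE, log2 scale, limma adjusted p = 0.222 over 179 miRNAs, exact permutation p = 0.171 for the row alone). Of the 179 miRNAs 37.4% were called, with 5.03% higher and 32.4% lower in ob/ob, and the median log2 difference was -0.51. Groups without overlap and higher in ob/ob made up 7.26%.

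Relative to that median, the 9-week difference was larger. After rescaling it was 1.11 ± 0.40 (limma adjusted p = 0.0810), where 21.5% of 177 miRNAs were called, 11.3% higher and 10.2% lower in ob/ob. wt replicate 3, at 14.5, then still lay above ob/ob replicate 3, at 11.2. Without wt replicate 3 the difference as deposited was 0.90 ± 0.33 (adjusted p = 0.0698), and without ob/ob replicate 1 it was 0.34 ± 0.40 (adjusted p = 0.563).

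The effect of the ob/ob genotype on miR-155-5p was not shown to differ between the ages. The effect at 14 weeks exceeded that at 9 weeks by 0.69 ± 0.50 on the log2 scale as deposited (limma adjusted p = 0.367). The median over the 187 miRNAs tested was of the same size, 0.68, and after rescaling the difference of miR-155-5p was -0.002 ± 0.50 (adjusted p = 0.996). The percentage of the 187 miRNAs called in this test was 0, with 48 of 187 at an unadjusted p under 0.05.

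Other measures moved with genotype in the same libraries. The implied depths given above did not overlap. The 3 hepatocyte miRNAs, miR-122-5p, miR-192-5p and miR-194-5p, summed to 1099 to 1688 RPM in wt and 3168 to 6898 RPM in ob/ob at 14 weeks, and to 1100 to 2222 and 3966 to 5524 RPM at 9 weeks. Most of each sum was miR-192-5p, with means of 1317 and 5212 RPM at 14 weeks. The hepatocyte miRNA miR-122-5p overlapped at 14 weeks, at 15.2 to 100.7 RPM in wt and 36.9 to 79.4 RPM in ob/ob (log2 difference 0.57 ± 0.56, limma adjusted p = 0.551), and rose at 9 weeks (2.02 ± 0.56, adjusted p = 0.0244). Erythroid miR-144-5p, the single listed marker of 2 for red cells, was at 0.331 to 0.974 RPM in wt and 11.6 to 32.4 RPM in ob/ob at 14 weeks. Lymphocyte miRNAs, from cells in which miR-155 is also known to be abundant, overlapped at 14 weeks, with summed levels of 5075 to 8207 RPM in wt and 5752 to 7982 RPM in ob/ob. Among them, miR-150-5p was at 95.8 to 256.7 RPM in wt and 239.4 to 304.2 RPM in ob/ob at 14 weeks (0.71 ± 0.34, limma adjusted p = 0.173). At 9 weeks the lymphocyte sum was lower in ob/ob, 4935 to 6729 RPM against 7421 to 7649 RPM in wt. Most of each lymphocyte sum was miR-181a-5p, with means of 5532 RPM in ob/ob and 7241 RPM in wt at 9 weeks. The 3 miRNAs summed, miR-150-5p, miR-181a-5p and miR-181b-5p, did not pass at 9 weeks (limma adjusted p 0.0852 to 0.239). After rescaling their log2 differences at 9 weeks were 0.06 to 0.11. Several cell type markers were lower in ob/ob at 9 weeks. Stellate miR-199a-3p was at 725.7 to 1016 RPM in wt and 207.1 to 402.6 RPM in ob/ob (-1.55 ± 0.26, limma adjusted p = 0.00526, and -1.04, adjusted p = 0.0371, after rescaling). Stellate miR-214-3p (-0.91, limma adjusted p = 0.0379) and endothelial miR-126a-3p (-0.94, adjusted p = 0.0230) fell as deposited and did not pass after rescaling. Myeloid miR-511-3p was at 144.7 to 169.1 RPM in wt and 53.6 to 101.4 RPM in ob/ob (-1.07, limma adjusted p = 0.00984, and -0.56, adjusted p = 0.0861, after rescaling). At 14 weeks none of these 4 passed the test on either scale, with a value of 0 for miR-126a-3p in 1 of the ob/ob libraries. Stellate miR-143-3p went the other way, with 0.43 at 9 weeks (limma adjusted p = 0.330) and 1.27 at 14 weeks (adjusted p = 0.0749). After rescaling it passed at 14 weeks (1.055, limma adjusted p = 0.0488) and not at 9 weeks (0.94, adjusted p = 0.0715). The other endothelial arm, miR-126a-5p, was the more abundant, with 9-week means of 46880 RPM in wt and 31870 RPM in ob/ob. It did not pass at 9 weeks (-0.64, limma adjusted p = 0.136) or at 14 weeks (0.35, adjusted p = 0.709). The part of these cell types and of depth in the level of miR-155-5p was not tested.

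Ratios of RPM within a library do not depend on how that library was scaled. The log2 ratios that were tested add 0.5 RPM to both rows, which makes them depend on scale where a row is low. miR-142a-5p, made by blood-derived cells in general, and miR-146a-5p, induced through NF-kB and known to feed back on TLR signalling, served as comparators. They are distinct from miR-155-5p in their seeds, shown again in capitals.
miR-142a-5p: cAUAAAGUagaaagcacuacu
miR-146a-5p: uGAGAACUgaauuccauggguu
For each 1000 RPM of miR-142a-5p, wt libraries of 14 weeks held 3.32, 4.73, 2.82 and 1.81 RPM of miR-155-5p and ob/ob libraries 9.72, 6.55, 4.76 and 3.62 RPM. At 9 weeks wt held 1.83, 2.23, 4.52 and 1.73 RPM and ob/ob 9.84, 4.34 and 3.52 RPM. The highest library was an ob/ob library at each age, and the groups overlapped at both. miR-142a-5p itself had a log2 difference, ob/ob against wt, of -0.51 at 9 weeks (limma adjusted p = 0.0895) and 0.43 at 14 weeks (adjusted p = 0.306). After rescaling these were 0.003 and 0.21. The ratios to miR-142a-5p carry its own differences as well as those of miR-155-5p.

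The log2 ratio of miR-155-5p to miR-142a-5p was higher in ob/ob by 0.88 at 14 weeks (exact permutation p = 0.0857, adjusted p = 0.257 over 6 ratio tests) and by 1.13 at 9 weeks (exact permutation p = 0.171, adjusted p = 0.257). Against miR-146a-5p, it differed by 1.10 at 14 weeks (exact permutation p = 0.143, adjusted p = 0.257) and by -0.78 at 9 weeks (exact permutation p = 0.286, adjusted p = 0.343). The latter ratio varied widely within groups. For each 1000 RPM of miR-146a-5p it ran from 1.98 to 15.8 RPM of miR-155-5p in wt and from 8.98 to 22.0 RPM in ob/ob at 14 weeks, and from 2.81 to 18.9 and 2.18 to 9.02 RPM at 9 weeks. The smallest p this exact permutation test allows is 0.0571 with 4 against 3 libraries and 0.0286 with 4 against 4, so after adjustment over the 6 ratio tests none could pass at either age. The ratios are therefore descriptions, and their p-values do not show that the genotypes are alike.

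**Figure D2:**
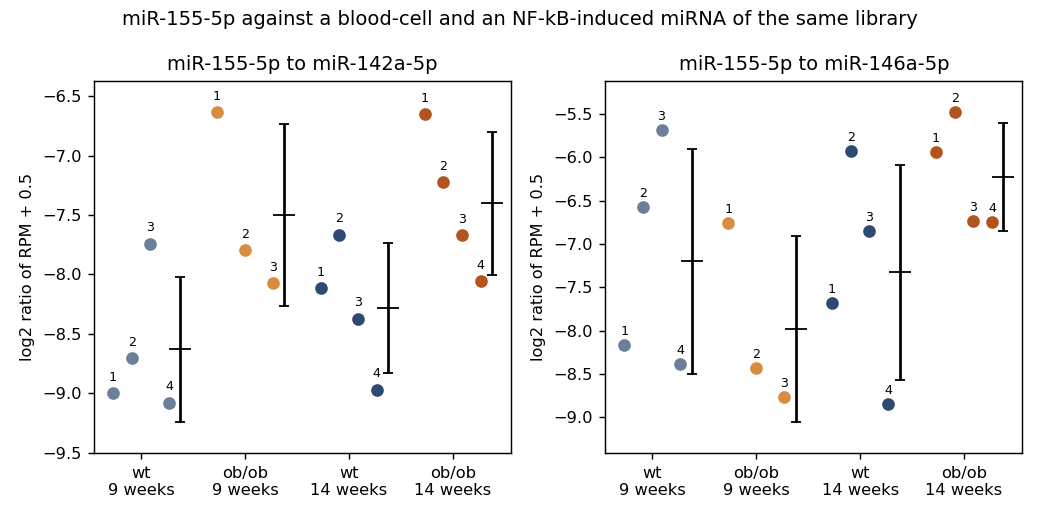
Log2 ratio of miR-155-5p to miR-142a-5p (left) and to miR-146a-5p (right) in each library, 0.5 RPM added to both, by group (x axis). Points are libraries with their replicate number, and black marks are group means with the SD. Genotypes overlap at both ages in both panels, and the ratio to miR-146a-5p differs between the ages in the sign of its mean difference, 1.10 at 14 weeks and -0.78 at 9 weeks.

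miR-155-3p, the partner strand, was close to the limit of detection. Its reads in replicates 1 to 4 of wt at 9 weeks were 1, 0, 2 and 1, and in the 3 ob/ob libraries of 9 weeks 11, 8 and 0. At 14 weeks wt libraries held 0, 2, 0 and 0 reads and ob/ob libraries 6, 0, 0 and 0. The highest level, in ob/ob replicate 1 of 9 weeks, was 0.330 RPM, and no library reached the 1 RPM needed to enter the test over all miRNAs. Listed reads in 7 of 15 libraries thus stood beside 0 in the other 8, of which 4 were ob/ob libraries.

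Of the 7691 reads of both miR-155 arms over all libraries, 31 were of the 3p arm, or 0.403%. The share was 1.60% (95% Clopper-Pearson interval 0.803 to 2.85%) in ob/ob replicate 1 of 9 weeks and 2.20% (0.954 to 4.28%) in replicate 2. In replicate 3 it was 0 of 302 reads, with an upper bound of 1.21% by the same method and of 0.993% by the limit of 3 reads. In ob/ob replicate 2 of 14 weeks, the deepest library, it was 0 of 2291 reads, with upper bounds of 0.161% and 0.131% by the same rules. The highest shares were thus in 2 of the 3 ob/ob libraries of 9 weeks. Their intervals overlapped those of ob/ob replicate 3 and of all 4 wt libraries of that age, whose upper bounds were 3.23 to 5.05%, so no difference in the share between the genotypes was detectable at this depth.

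The log2 level of miR-155-3p differed between genotypes by 0.31 at 9 weeks (two-sided exact permutation p = 0.286, n = 4 and 3) and by 0.05 at 14 weeks (exact permutation p = 1, n = 4 and 4). The log2 ratio of the 5p to the 3p arm was higher in ob/ob by 1.26 at 14 weeks (exact permutation p = 0.0286, adjusted p = 0.172 over 6 ratio tests) and by 0.32 at 9 weeks (exact permutation p = 0.400, adjusted p = 0.400). With the 3p arm at 0 in 6 of the 8 libraries of 14 weeks, that ratio mostly restates the level of the 5p arm over the added 0.5 RPM.

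miR-147-3p was scarce in every group and did not differ detectably between genotypes. Its mean was 1.01 ± 0.386 RPM (SD, n = 4) in wt and 0.899 ± 0.404 RPM (n = 3) in ob/ob at 9 weeks, and 0.794 ± 0.736 RPM (n = 4) and 0.991 ± 0.289 RPM (n = 4) at 14 weeks. These means took place 170 to 180 of the 248 miRNAs. The order of the groups was wt at 9 weeks, ob/ob at 14 weeks, ob/ob at 9 weeks and wt at 14 weeks, with overlap between all neighbours.

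In wt at 9 weeks, miR-147-3p was at 0.747, 0.745, 1.56 and 0.979 RPM, from 17, 10, 22 and 14 reads. In ob/ob at 9 weeks it was at 1.26, 0.463 and 0.973 RPM, from 42, 12 and 33 reads. The difference, ob/ob minus wt, was -0.12 on the log2 scale (exact permutation p = 0.743), and the groups overlapped, with ob/ob replicate 2 the lowest library and wt replicate 3 the highest. A limma fit with no filter on low values gave -0.12 ± 0.31 (SE, adjusted p = 0.807), and after rescaling the sign turned, to 0.20.

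At 14 weeks wt libraries held 0.441, 1.90, 0.464 and 0.374 RPM of miR-147-3p, from 4, 74, 11 and 9 reads. The ob/ob libraries held 0.590, 0.969, 1.22 and 1.18 RPM, from 26, 95, 72 and 61 reads. wt replicate 2 was the highest of all 15 libraries, and the other wt libraries lay below all 4 ob/ob libraries. The difference was 0.32 (exact permutation p = 0.400), or 0.32 ± 0.35 in the limma fit with no filter (adjusted p = 0.581). Without wt replicate 2 it was 0.67 (exact permutation p = 0.0571, the smallest that 3 against 4 libraries allow). By lane it was -0.25 in lane 1, which held wt replicate 2, and 0.89 in lane 2, where 2 against 2 libraries allow no exact p under 0.333. The effect of the ob/ob genotype on miR-147-3p differed between 14 and 9 weeks by 0.44 ± 0.49 (SE, limma adjusted p = 0.555), and by -0.003 after rescaling.

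The highest libraries of miR-155-5p and miR-147-3p coincided in 3 of the 4 groups. These were wt replicate 3 and ob/ob replicate 1 at 9 weeks and wt replicate 2 at 14 weeks. In ob/ob at 14 weeks the highest were replicate 2 for miR-155-5p and replicate 3 for miR-147-3p. How often the highest libraries of other miRNAs coincide was not tested, and miR-147-3p rested on 4 to 95 reads, so nothing is read from this count. miR-155-5p was the more abundant of the pair in every library.

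Other miRNAs tied to TLR or LPS signals are set beside miR-155-5p by count. Of a list of 18, 16 were measured and 13 passed the filter on low values at each age; miR-146a-3p, miR-146b-3p and miR-21a-3p were listed below it. At 14 weeks 1 of the 13 rose, 0 fell and 12 did not pass, where 11.7% of all 171 miRNAs rose and 3.51% fell, and the median log2 difference was -0.15 in the list against 0.20 over all. At 9 weeks 1 rose, 6 fell and 6 did not pass, where 5.03% of all 179 rose and 32.4% fell, with a median of -0.59 against -0.51. After rescaling 1 rose and 4 fell at 14 weeks (15.5% and 13.1% of all), and 2 rose and 2 fell at 9 weeks (11.3% and 10.2% of all). Nothing particular to the list is read from these counts.

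miR-146b-5p, a feedback miRNA of the same pathway as miR-146a, was the single member that rose at both ages. At 14 weeks it was at 52.9 to 140.4 RPM in wt and 205.1 to 495.0 RPM in ob/ob (log2 difference 1.79 ± 0.42, limma adjusted p = 0.0175). At 9 weeks the difference was 2.86 ± 0.58 (adjusted p = 0.00917). miR-146a-5p differed by 0.21 ± 0.38 at 14 weeks (limma adjusted p = 0.762) and by 1.41 ± 0.56 at 9 weeks (adjusted p = 0.0883), where it passed after rescaling (1.92 ± 0.54, adjusted p = 0.0435). miR-21a-5p, known to target Pdcd4, was at 13320 to 20000 RPM in wt and 21820 to 43350 RPM in ob/ob at 14 weeks without passing the test (0.88 ± 0.27, adjusted p = 0.0535).

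The members that fell at 9 weeks were miR-125a-5p, miR-125b-5p, let-7e-5p, miR-222-3p, miR-511-3p and miR-132-3p. miR-125b-5p is known to be lowered by LPS in macrophages, miR-222-3p is linked to LPS tolerance, and miR-132-3p is induced through CREB. The largest fall was that of miR-125a-5p, with a log2 difference of -1.67 ± 0.31 (limma adjusted p = 0.00543). Of the 6, miR-125a-5p and let-7e-5p also passed after rescaling at 9 weeks. At 14 weeks miR-125a-5p was at 1331 to 3940 RPM in wt and 384.2 to 1639 RPM in ob/ob. It passed only after rescaling (-1.74 ± 0.37, limma adjusted p = 0.00794), and not as deposited (-1.53 ± 0.50, adjusted p = 0.0674). The same held at 14 weeks for miR-222-3p (rescaled -0.93, limma adjusted p = 0.0164), let-7e-5p (-0.92, adjusted p = 0.0449) and miR-125b-5p (-1.06, adjusted p = 0.0457).

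**Figure D3:**
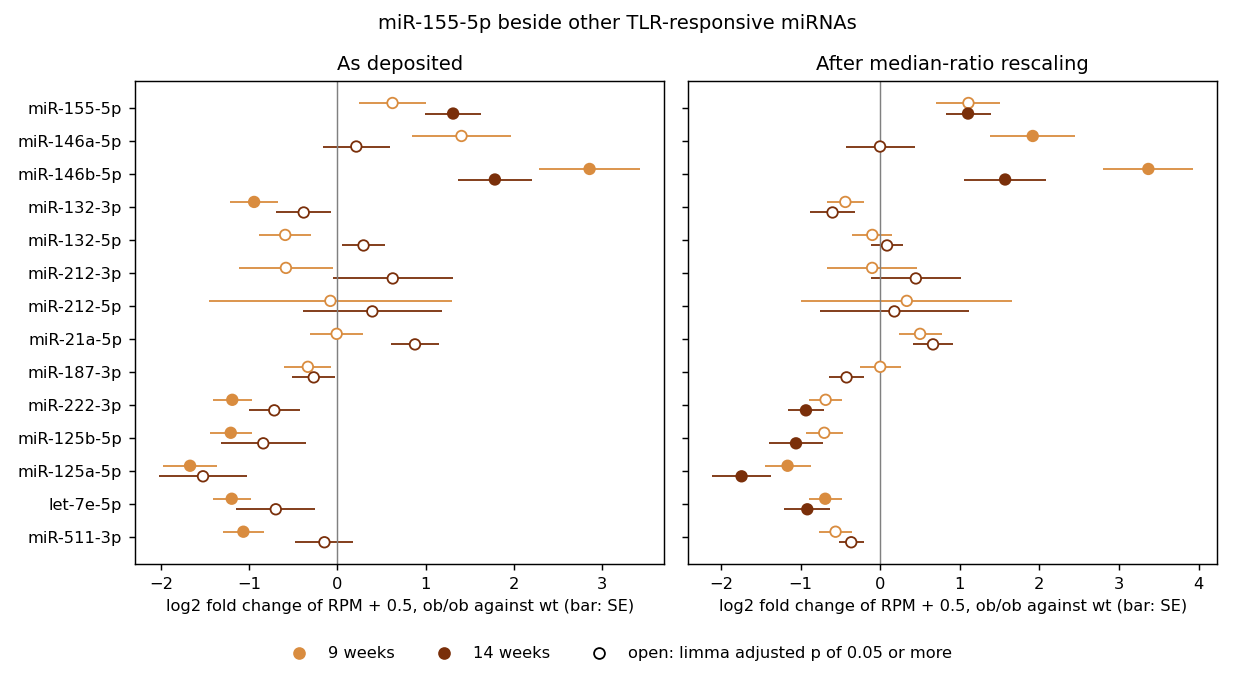
Log2 difference of RPM + 0.5, ob/ob against wt (x axis), of miR-155-5p and the 13 tested TLR-responsive miRNAs (y axis), as deposited and after rescaling. Points are limma estimates at 9 weeks (light) and 14 weeks (dark), bars are SE, and filled points passed an adjusted p of 0.05. miR-155-5p and miR-146b-5p lie to the right of 0 at both ages in both panels. To the left lie miR-125a-5p, miR-125b-5p, let-7e-5p, miR-222-3p, miR-511-3p, miR-132-3p and miR-187-3p, the last at -0.001 at 9 weeks after rescaling.

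By its levels over the 15 libraries, miR-155-5p was most like miR-144-5p, with Pearson's r of 0.779 among 168 miRNAs compared on the log2 scale. miR-210-3p (r = 0.745), miR-130b-3p (0.742), miR-582-3p (0.734) and miR-345-5p (0.733) followed. All 5 had higher means in ob/ob than in wt at both ages, and the libraries share their depth and genotype split. For deviations from the 4 group means, the r with miR-155-5p was 0.35, 0.18, 0.25, -0.06 and 0.25 in the same order, so the likeness lay mainly between the groups. Lymphocyte miR-150-5p, at place 17, had an r of 0.584 over levels and 0.599 for deviations. The r of deviations was -0.183 for miR-142a-5p, -0.346 for miR-192-5p, -0.609 for miR-146a-5p and -0.695 for miR-146b-5p. These are descriptions over libraries with no test. miR-147-3p had too few libraries at 1 RPM for the same comparison.

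**Figure D4:**
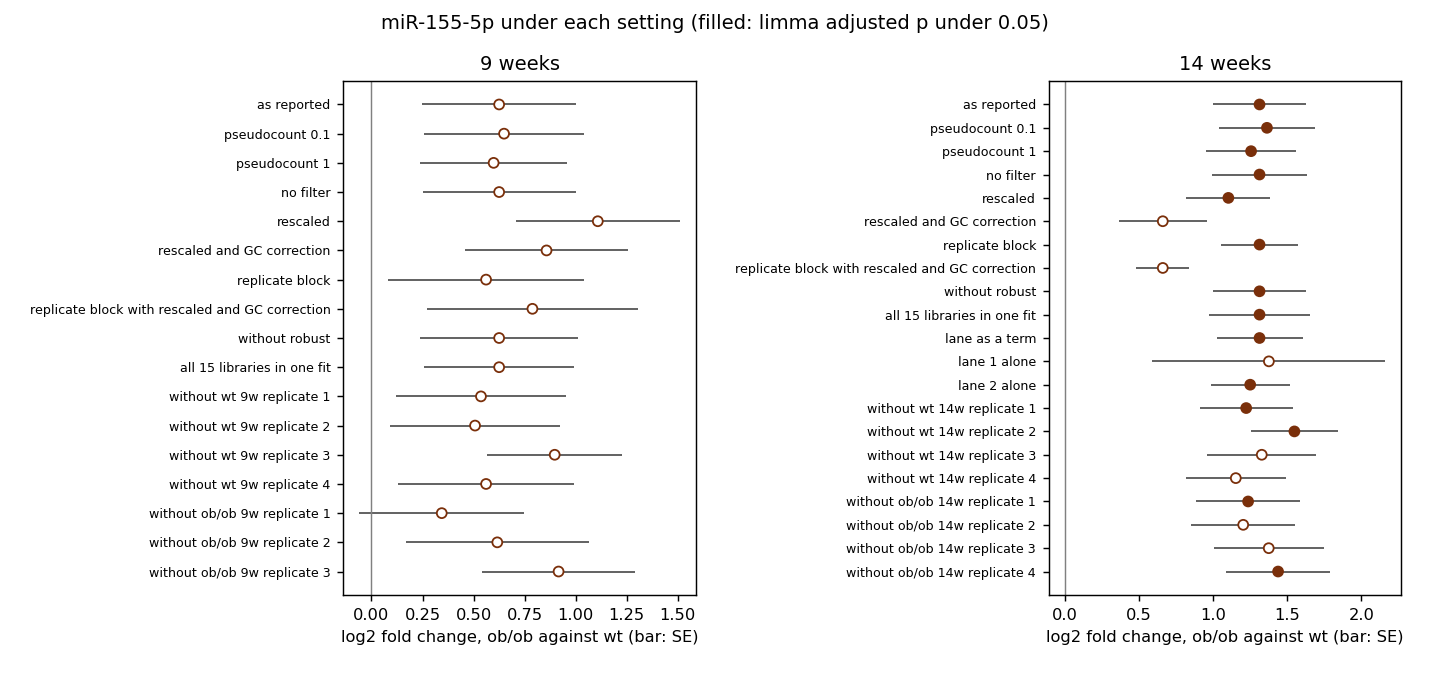
Log2 difference of miR-155-5p, ob/ob against wt (x axis), at 9 weeks (left) and 14 weeks (right) under each setting (y axis). Points are limma estimates, bars are SE, and filled points have an adjusted p under 0.05. All estimates lie above 0, from 0.34 to 1.11 at 9 weeks and from 0.66 to 1.55 at 14 weeks, and the 14-week call holds in 13 of the 20 other settings.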

How the data were processed

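Small RNA libraries (TruSeq kit, Illumina HiSeq, per the labels' protocols) of 15 Kupffer cell samples were grouped by genotype and age from the labels. The submitters' processing notes name bcl2fastq, cutadapt, GRCm38.p5 and mm10. Not given in the sources used here are the aligner, counting tool, miRNA annotation, handling of reads with several matches and the reads that form the denominator. The deposited values were taken as RPM made by the authors, 1 table for each age. The unit was inferred from the values, which were whole multiples, within 0.1 reads, of 1 step in each library for 100.0% of values above 0. Read numbers and depths are those implied by the step and served only for counting intervals (Poisson, or Clopper-Pearson for shares, 95%) and for limits of 3 reads. No count model was used, although the design foresaw one for whole counts.

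Within each age, limma 3.58.1 (R 4.3.3) was fitted to log2(RPM + 0.5) with its trend and robust options, Benjamini-Hochberg adjustment over all tested miRNAs and a threshold of 0.05. A miRNA needed 1 RPM in at least 3 libraries at 9 weeks or 4 at 14 weeks. miR-155-3p and miR-147-3p did not pass at either age, so within an age their rows were tested alone by two-sided exact permutation (scipy 1.17.1), a choice made after seeing the data. Fold changes on this scale understate changes of rare miRNAs. The difference between ages was the interaction term over all 15 libraries, for miRNAs with 1 RPM in at least 3 of them, which miR-147-3p passed. On simulated data drawn from the real means, the limma fit was checked for recovery of known changes. Those data had rescaled means, independent normal errors and no difference in depth or scale between genotypes, so the check does not cover such differences.

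Alternatives were added constants of 0.1 and 1 RPM, no filter, median-ratio rescaling (over miRNAs above 0 in all libraries whose mean reached 5 RPM), rescaling with a linear GC correction per library (from the 218 RefSeq mature sequences), lanes, a replicate block and leaving out each library. For fits within an age that left out a library or used a single lane, 1 RPM was needed in as many libraries as the smaller group held. The members and lists were chosen with earlier results of these data known. Named were the 3 members, the measured miRNAs of the TLR-responsive list, the markers of cell types and, for a member at 1 RPM or more in at least 8 libraries, the 5 miRNAs with the highest Pearson's r. A few others, such as the nearest sequences, are named as single facts.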

Additional observations from a re-analysis of the deposited data

Results flagged for a closer look

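Of 96 sets of 4 libraries looked at, 13 held a library far from the other 3 of its group, with a gap that passed Dixon's 95% limit. Chance flags about 1 in 20 such sets where values follow a normal distribution. RPM on a linear scale need not, and the sets share libraries and rows, so the number of flags is not read against that rate. Several concern the members. miR-155-5p was at 15.6 RPM in wt replicate 3 of 9 weeks against 6.63 to 7.49 RPM in the others, and the log2 ratio of miR-155-5p to miR-155-3p was 4.65 in that library against 3.80 to 3.83. miR-147-3p was at 1.90 RPM in wt replicate 2 of 14 weeks against 0.374 to 0.464 RPM. miR-155-3p was at 0.0513 RPM in wt replicate 2 and 0.136 RPM in ob/ob replicate 1 of 14 weeks, with 0 in the others of each group. These values were 2 and 6 reads, and where the others are all 0 any read passes the limit. The flag of the ratio shares its miR-155-5p value with the flag of that row, so it is not a separate one.

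Among the compared miRNAs, miR-212-5p stood apart in 3 groups, at 31.0 RPM in wt replicate 1 of 9 weeks (others 1.21 to 1.68), 9.25 RPM in wt replicate 1 of 14 weeks (others 1.60 to 1.66) and 19.5 RPM in ob/ob replicate 2 of 14 weeks (others 1.54 to 2.44). miR-146b-3p was at 0.284 RPM in wt replicate 3 of 9 weeks (others 0.0439 to 0.0745) and miR-146b-5p at 495.0 RPM in ob/ob replicate 4 of 14 weeks (others 205.1 to 248.7). miR-582-3p was at 2.31 RPM in wt replicate 2 of 9 weeks (others 1.12 to 1.28), and miR-21a-5p at 13320 RPM in wt replicate 1 of 14 weeks, below the 19190 to 20000 RPM of the others. The implied depth of wt replicate 1 of 9 weeks was 22.8 M reads against 13.4 to 14.3 M.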

How the results depend on the processing

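miR-155-5p was higher in ob/ob under all 16 alternatives at 9 weeks, with no call in any (leave-one-out 0.34 to 0.92), and under all 20 at 14 weeks, where 13 kept the call. At 14 weeks the call ended with rescaling and GC correction (0.66, limma adjusted p = 0.141), with the replicate block added to both (0.66, adjusted p = 0.0791), in lane 1 alone (1.38, adjusted p = 0.450) and without 4 of the 8 libraries in turn (1.15 to 1.38, adjusted p 0.05005 to 0.0780). Over all 8 such omissions it was 1.15 to 1.55. The difference between the ages turned to -0.002 after rescaling. The 67 calls at 9 weeks became 38 after rescaling, 39 with GC correction, 32 with the replicate block, 10 with all of these, and 53 to 71 without single libraries. The 26 calls at 14 weeks became 48 after rescaling, 48 in the fit of all 15 libraries, 1 in lane 1, 51 in lane 2, and 13 to 46 without single libraries (46 without wt replicate 1, 15 without wt replicate 3, 13 without ob/ob replicate 3). The ratio of the miR-155 arms turned to -0.088 at 9 weeks with 0.1 RPM added. At 14 weeks it was 1.26 with the replicate block (exact permutation p = 0.125) and 1.11 to 1.46 without single libraries (exact permutation p = 0.0571 in each, the smallest possible). miR-155-3p at 14 weeks gave 0 in lane 2 alone and -0.035 to 0.087 without single libraries, with -0.035 without ob/ob replicate 1. miR-147-3p gave 0.20 at 9 weeks after rescaling and -0.31 to 0.13 without single libraries, the sign turning when wt replicate 3 (0.04) or ob/ob replicate 2 (0.13) was left out. At 14 weeks it gave -0.25 in lane 1. The cause of these shifts was not tested. Replicate numbers are shared by the genotypes, but deviations of same-numbered libraries correlated at -0.14 to 0.28 at 9 weeks and -0.24 to 0.20 at 14 weeks, so the numbers were not taken as pairs. With the replicate block miR-155-5p gave 0.56 at 9 weeks (limma adjusted p = 0.419) and 1.31 at 14 weeks (adjusted p = 0.0295). Depth limits miR-155-3p most, with 0 to 11 reads in a library, and miR-147-3p with 4 to 95.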

Other observations

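Within groups, the library with the most miR-155-5p held the least miR-146a-5p in 3 of the 4 groups and the least miR-146b-5p in 2. These counts were noticed in the values and not tested. In ob/ob at 9 weeks the library with the most miR-155-5p was replicate 1, with 2246 RPM of miR-146a-5p against 4088 and 4904 RPM in the others. In wt at 14 weeks replicate 2 held 755.5 RPM against 911.0 to 2513 RPM, and in ob/ob at 14 weeks replicate 2 held 1063 RPM against 1365 to 1781 RPM. In wt at 9 weeks replicate 3 held 824.3 RPM, within the range of 678.6 to 2659 RPM of the others. For lymphocyte miR-150-5p the libraries with the most miR-155-5p were the highest of their group in 2 of the 4 groups and the lowest in 0. How often such matches arise for other miRNAs was not tested, so nothing is read from these counts.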
